A study of Rattus norvegicus with 10 samples.

Results

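A set of 10 genes that are used to tell an epithelial from a mesenchymal cell state was followed in rat β-cells in which the repressor Scrt1 was silenced. The genes were taken by symbol from the deposited table: Cdh1, Epcam, Esrp1, Tjp1, Ocln, Cldn4, Cdh2, Vim, Zeb1 and Zeb2. All 10 were found, among 23918 genes in the table, and each symbol belonged to 1 Ensembl gene. Adult Sprague-Dawley rat islets were dispersed, and β-cells, which make insulin, were sorted by their autofluorescence (FACS). The sorted cells received either a pool of siRNAs against rat Scrt1 (siScrt1) or a negative control siRNA (siCtrl), both with the same lipid reagent, and RNA was taken 48 h later. There were 5 libraries per group, named siCtrl 1 to 5 and siScrt1 A to E, and the sources used here do not say whether they came from separate rats or sorts. The p-values below therefore measure the spread between libraries, which may be technical.

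Epithelial cells are held together by E-cadherin at adherens junctions and by occludin and claudins at tight junctions, and mesenchymal cells lose these contacts and express N-cadherin and vimentin. Repressors of the Snail superfamily, to which SCRT1 belongs, bind the E-box, a 6-letter DNA element, and Snail and ZEB factors are known to shut down the E-cadherin gene in this way. β-cells are epithelial in origin and use E-cadherin to contact each other within the islet, and they also carry N-cadherin.

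The letters searched were those of the E-box CAGGTG and its reverse complement CACCTG, so that both strands were covered, and the 7 letters ACAGGTG or CACCTGT, which contain the E-box and form the core of the SCRT1 motif listed by the study. That motif is shown to make the search clear, with its core in capitals.
SCRT1 motif: gagcaACAGGTGgtt
RefSeq promoters, from 250 bases before to 50 bases after the start, were at hand for 6 of the 10 genes in build GRCr8. The promoters of Vim, Zeb2 and Tjp1 held no E-box in this window, and those of Epcam, Ocln and Zeb1 did. The upstream 250 bases of these 3 are shown 5′ to 3′ because they carry the element, with each E-box in capitals. Epcam lies at chr6:12649679-12649928, Ocln at chr2:33441199-33441448 and Zeb1 at chr17:56810654-56810903, all on the minus strand.
Epcam promoter: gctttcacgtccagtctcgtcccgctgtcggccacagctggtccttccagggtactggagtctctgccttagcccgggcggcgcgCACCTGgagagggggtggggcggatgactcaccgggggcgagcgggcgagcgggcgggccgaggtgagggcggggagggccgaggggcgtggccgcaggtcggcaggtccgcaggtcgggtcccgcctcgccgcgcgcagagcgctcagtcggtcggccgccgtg
Ocln promoter: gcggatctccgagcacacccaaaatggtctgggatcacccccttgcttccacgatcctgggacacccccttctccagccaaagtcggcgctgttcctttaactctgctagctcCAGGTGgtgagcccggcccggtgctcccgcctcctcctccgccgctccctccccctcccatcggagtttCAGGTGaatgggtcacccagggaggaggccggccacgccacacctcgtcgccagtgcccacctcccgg
Zeb1 promoter: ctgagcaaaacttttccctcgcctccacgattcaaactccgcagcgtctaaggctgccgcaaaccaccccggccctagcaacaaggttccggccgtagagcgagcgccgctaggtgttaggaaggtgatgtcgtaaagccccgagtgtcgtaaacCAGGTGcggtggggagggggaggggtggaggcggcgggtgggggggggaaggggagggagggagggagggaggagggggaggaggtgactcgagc
The Epcam element began 165 bases before the start, and the 2 Ocln elements began 137 and 68 bases before it. Zeb1 had 1 element 95 bases before the start and a further one 37 bases after it, outside the stretch shown. None of the 6 promoters held the 7-letter core. Of all 33469 promoters of this length 18.8% held an E-box, 2.52% held at least 2, and 4.42% held the core. Cdh1, Cdh2, Cldn4 and Esrp1 had no entry. A match of letters is a description and no evidence of binding.

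The targeted gene was lowered in the libraries labelled siScrt1. Levels are given in TPM, relative to transcript length and library total and then scaled between libraries by the authors. After this scaling the TPM summed to 821278 in siCtrl 2 and 1.15e+06 in siCtrl 3. Scrt1 had 8.78, 6.34, 8.6, 10.2 and 6.75 TPM in siCtrl 1 to 5, and 3.4, 2.53, 2.58, 1.24 and 0.928 TPM in siScrt1 A to E. The log2 fold change, siScrt1 over siCtrl throughout, was -2.06 (SE 0.308, adjusted p = 0.00618 by limma). Over all genes, 136 of the 12941 tested passed an adjusted p under 0.05, which is 1.05%, with 88 lowered (0.68%) and 48 raised (0.371%) in siScrt1. With the library number of the deposited table as a term (a replicate block) 259 genes passed, and without siCtrl 4 and siScrt1 D 25 did. The libraries held 11901342 to 17444034 reads. The sorted cells had the markers of β-cells: Ins1 and Ins2 took 34.3 to 49.2% of the TPM, Gcg, the α-cell hormone, stood at 203 to 624 TPM, and the 7 acinar markers summed to between 0.104 and 0.694 TPM. The 4 markers of δ- and PP-cells summed to 45.2 to 214 TPM. The 6 duct markers, an epithelial list, summed to 129 to 182 TPM in siCtrl and 155 to 183 TPM in siScrt1 (two-sided exact permutation test, p = 0.246). Most of this was Krt7, with 107 to 157 TPM, whereas Krt19 had 0.665 to 3.11 TPM and Sox9 0.14 to 0.372 TPM, and the part of duct cells in the levels below was not tested. The libraries siCtrl 4 and siScrt1 D stood apart in Vim and in collagen genes, as described with Vim below.

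Among the 8 of the 10 genes with enough reads to be tested, 1 passed the threshold: Epcam fell. This is 12.5% of the 8, beside 1.05% of all genes tested. Vim and Zeb2 had too few reads to enter the fit. Of the 8 fitted changes 4 were above and 4 below 0, with a median of 0.03 on the log2 scale. At an unadjusted p under 0.05 there were 2, Epcam and Cldn4, where 11.1% of all genes were under that value. In these bulk libraries fewer cells of a type and less RNA per cell cannot be told apart, and this holds for every level given here.

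**Figure D1:**
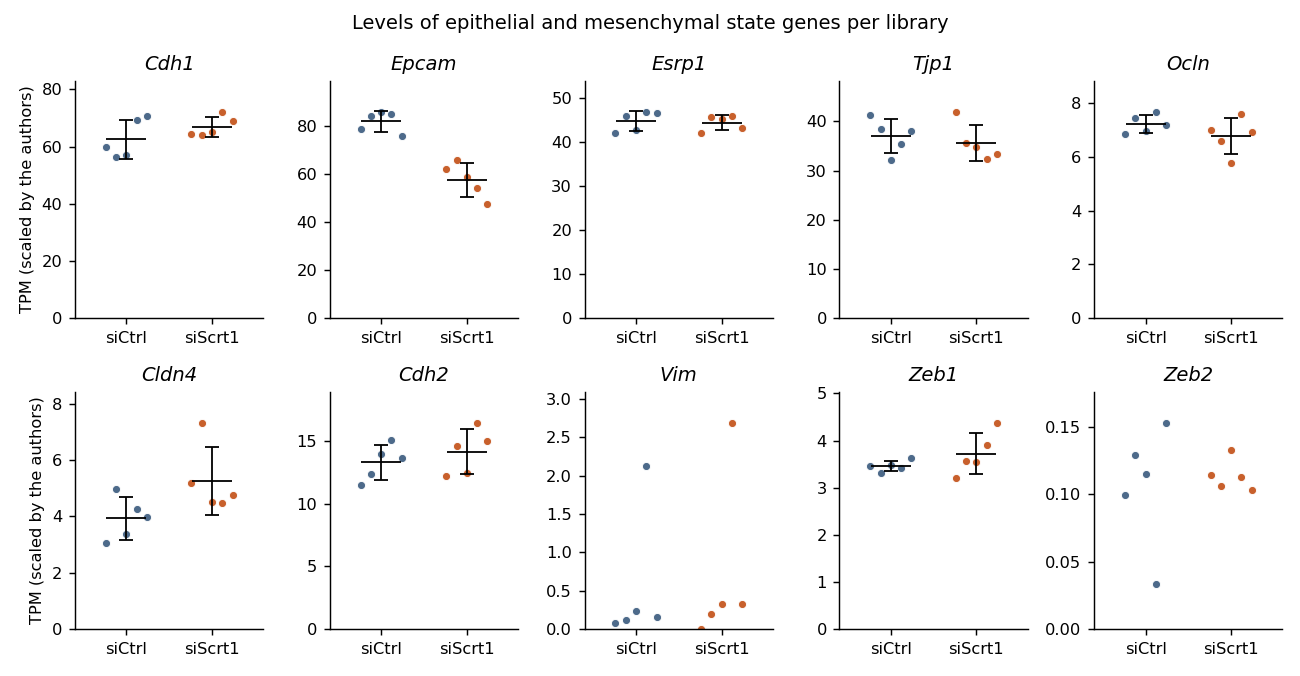
Levels of the 10 genes in TPM, 1 point per library and 5 libraries per group, with the mean and SD as bars except for Vim and Zeb2. Only the Epcam panel shows groups that do not meet, with siCtrl from 75.7 to 85.8 and siScrt1 from 47.5 to 65.7 TPM.

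Epcam (ENSRNOG00000015667) encodes a homophilic adhesion molecule of the epithelial cell surface and was the highest of the 10 genes in siCtrl. Its level was 78.9, 84.3, 85.8, 84.8 and 75.7 TPM in siCtrl 1 to 5. In siScrt1 A to E it was 62.0, 65.7, 58.9, 54.0 and 47.5 TPM. Every siScrt1 library lay below every siCtrl library. The means were 81.9 ± 4.36 and 57.6 ± 7.11 TPM (SD, n = 5 each), a decrease of 29.7%. The log2 fold change was -0.52 (SE 0.0844, 95% interval -0.70 to -0.34, adjusted p = 0.00964 by limma). The CPM (reads relative to the library total, with no correction for length) did not overlap between the groups either, a separation found for 2.96% of all tested genes. Epcam was lower in siScrt1 in 5 of 5 pairs of libraries with the same number in the deposited table, by 0.35 to 0.68 on the log2 scale. The 1222 to 2341 reads per library were not whole numbers in any library, so that some reads had been shared with a transcript of another gene, and the level is uncertain to that extent. The single Epcam transcript gave the same log2 fold change of -0.52 in a fit over 17516 transcripts (adjusted p = 0.0277 by limma), of which 73, or 0.417%, were called (29 with the library number as a term). The call was kept when any single library was left out. It was lost when both siCtrl 4 and siScrt1 D were left out (-0.49, adjusted p = 0.107 by limma) and kept without these 2 when the library number was a term in the fit (-0.49, adjusted p = 0.024 by limma).

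Cdh1 (ENSRNOG00000020151) encodes E-cadherin, the core adhesion receptor of epithelial adherens junctions and a classic target of Snail-type repressors. Its level was 59.7, 56.3, 57.1, 69.2 and 70.7 TPM in siCtrl 1 to 5, and 64.4, 64.2, 65.0, 72.1 and 68.9 TPM in siScrt1 A to E. The groups overlapped, with means of 62.6 ± 6.85 and 66.9 ± 3.48 TPM (SD, n = 5 each). The fitted log2 fold change was 0.10 (SE 0.0772, adjusted p = 0.683 by limma), and its 95% interval of -0.07 to 0.26 bounds the change that these libraries allow. Cdh1 was covered by 3434 to 5426 reads per library, 44113 reads over the 10 libraries and more in total than any other of the 10 genes.

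Epcam and Cdh1 thus changed places in the order of levels. In siCtrl the level of Epcam exceeded that of Cdh1 in 5 of 5 libraries, and the ratio of their TPM was 1.32 ± 0.184 (SD, n = 5). In siScrt1 Cdh1 exceeded Epcam in 4 of 5 libraries, and the ratio was 0.866 ± 0.142 (SD, n = 5). No separate test was made of this ratio, since it carries the Epcam values again.

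Cdh2 (ENSRNOG00000015602), the gene of N-cadherin, which is the mesenchymal counterpart of E-cadherin, had 11.5, 12.4, 14.0, 15.1 and 13.7 TPM in siCtrl 1 to 5. In siScrt1 A to E it had 12.2, 14.6, 12.5, 16.5 and 15 TPM, and the groups overlapped. The log2 fold change was 0.08 (95% interval -0.13 to 0.29, adjusted p = 0.811 by limma). Cdh2 made up 17.6 ± 1.46% of the summed TPM of both cadherins in siCtrl and 17.4 ± 1.3% in siScrt1 (n = 5 each, SD; two-sided exact permutation test, p = 0.865, adjusted p = 0.881 over 5 values tested in this way). A shift from E-cadherin to N-cadherin transcripts was therefore not detectable. The reads of Cdh2, as those of Epcam, were not whole numbers in any library.

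Esrp1 (ENSRNOG00000008184), a splicing factor that keeps epithelial exon choices, had the smallest standard error of the 8 tested genes, 0.0586 on the log2 scale. Its level ran from 42.1 to 46.9 TPM in siCtrl and from 42.1 to 45.9 TPM in siScrt1. The groups covered nearly the same range, and the log2 fold change was -0.02 (95% interval -0.15 to 0.11, adjusted p = 0.932 by limma). Both Esrp1 transcripts in the table were read in all 10 libraries. The longer one, of 3870 bases, took 54.8 ± 4.39% of the gene's TPM in siCtrl and 54.4 ± 2.21% in siScrt1 (n = 5 each, SD; two-sided exact permutation test, p = 0.881).

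The genes of the tight junction were Tjp1, Ocln and Cldn4. Tjp1 (ENSRNOG00000011077) encodes the scaffold ZO-1, which ties the junction to actin. It had 32.2 to 41.2 TPM in siCtrl and 32.4 to 41.9 TPM in siScrt1, with a log2 fold change of -0.07 (95% interval -0.25 to 0.11, adjusted p = 0.792 by limma). Its transcripts of 6614 and 6018 bases were both read in every library. The longer one took 57.6, 70.5, 63.5, 58.6 and 60.5% of the gene's TPM in siCtrl 1 to 5, and 55.2, 50.5, 50.6, 59.9 and 63.2% in siScrt1 A to E. The means were 62.1 ± 5.19 and 55.9 ± 5.66% (SD, n = 5 each), and the groups overlapped (exact two-sided permutation test, p = 0.111, adjusted p = 0.555 over the 5 values). Fitted alone, the longer transcript had a log2 fold change of -0.22 (adjusted p = 0.519 by limma) and the shorter one 0.16 (adjusted p = 0.781 by limma).

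Ocln (ENSRNOG00000018297), the gene of occludin, a membrane protein that spans the tight junction, had 6.84, 7.42, 6.97, 7.66 and 7.18 TPM in siCtrl 1 to 5. In siScrt1 A to E it had 6.99, 6.59, 5.76, 7.59 and 6.92 TPM, and siScrt1 C was the lowest of all. Its log2 fold change was -0.10 (95% interval -0.27 to 0.07, adjusted p = 0.684 by limma). The groups overlapped. Whether the 2 E-boxes in the promoter shown above bear on the level of Ocln was not tested. A second Ocln transcript, of 3695 bases, was above 0 in 4 of 10 libraries with at most 47.9 reads and was not tested.

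Cldn4 (ENSRNOG00000001476) encodes a claudin, one of the strand-forming proteins that set the permeability of the tight junction. It had 3.05, 4.98, 3.38, 4.27 and 3.97 TPM in siCtrl 1 to 5, and 5.17, 7.32, 4.51, 4.47 and 4.77 TPM in siScrt1 A to E. The groups overlapped through siCtrl 2 alone, and siScrt1 B stood far above the others. The log2 fold change of 0.41 (SE 0.167, 95% interval 0.05 to 0.77) did not pass the threshold (adjusted p = 0.373 by limma). Cldn4 was higher in siScrt1 in 5 of 5 pairs of libraries with the same number, by 0.07 to 0.76 on the log2 scale. With the library number as a term it remained above the threshold (adjusted p = 0.13 by limma). It was read only 71 to 224 times per library.

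**Figure D2:**
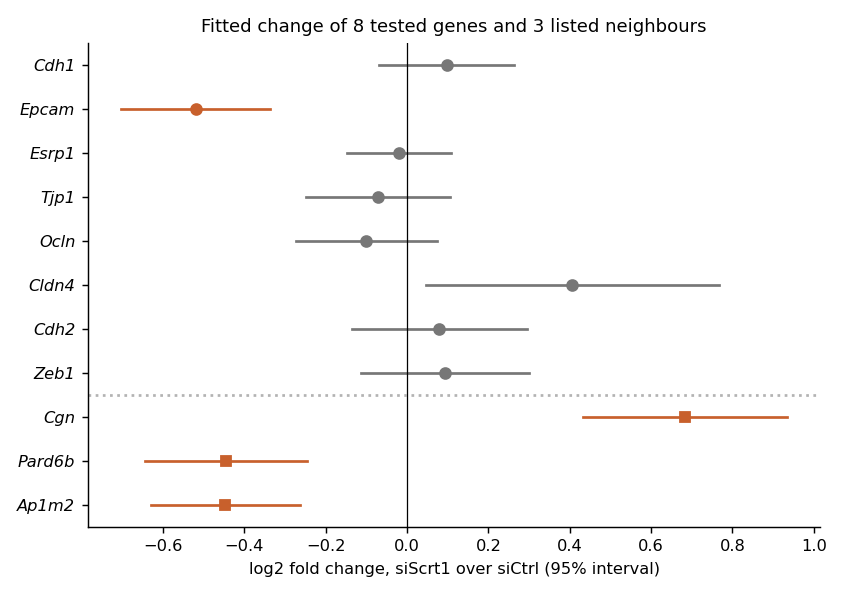
Log2 fold change, siScrt1 over siCtrl, with 95% intervals from limma for the 8 tested genes (circles) and for 3 further junction or epithelial genes that passed the threshold (squares); orange marks an adjusted p under 0.05. Epcam, at -0.52, is the only circle in orange, and Cldn4, at 0.41, has an interval above 0 but does not pass after adjustment.

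Zeb1 (ENSRNOG00000017863) encodes a zinc finger repressor of E-cadherin that itself binds E-boxes. It was low in both groups, with 3.47, 3.32, 3.48, 3.42 and 3.62 TPM in siCtrl 1 to 5. In siScrt1 A to E it had 3.21, 3.57, 3.55, 3.91 and 4.38 TPM, so that the siScrt1 libraries lay on both sides of siCtrl. Its log2 fold change was 0.09 (95% interval -0.11 to 0.30, adjusted p = 0.767 by limma). One of its 2 transcripts was at 0 in all 10 libraries. The reads of Zeb1 were whole in 1 of 10 libraries.

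Zeb2 (ENSRNOG00000004677), its paralog with the same role, was close to the limit of detection with 2 to 8 reads per library. Its level was 0.0335 to 0.153 TPM in siCtrl and 0.103 to 0.133 TPM in siScrt1 (exact two-sided permutation test, p = 0.786, adjusted p = 0.881 over the 5 values). At this depth a change in Zeb2 was not detectable.

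Vim (ENSRNOG00000018087) encodes vimentin, the intermediate filament of mesenchymal cells. It had 2, 3, 7, 61 and 4 reads in siCtrl 1 to 5, and 0, 6, 8, 80 and 9 reads in siScrt1 A to E. The library without a read allows up to 0.252 CPM by counting error. As levels these were 0.0828, 0.115, 0.24, 2.12 and 0.159 TPM in siCtrl and 0, 0.189, 0.322, 2.69 and 0.32 TPM in siScrt1. Vim was thus high in 1 library of each group, siCtrl 4 and siScrt1 D, which carry the same number in the deposited table, and near 0 in the other 8. The groups did not differ beyond their spread (exact two-sided permutation test, p = 0.603, adjusted p = 0.881 over the 5 values). That test was unpaired, and most of the spread came from 1 library of each group, so it says little about the other 8. Within pairs of the same number, Vim was higher in siScrt1 in 4 of 5, at few reads in most.

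**Figure D3:**
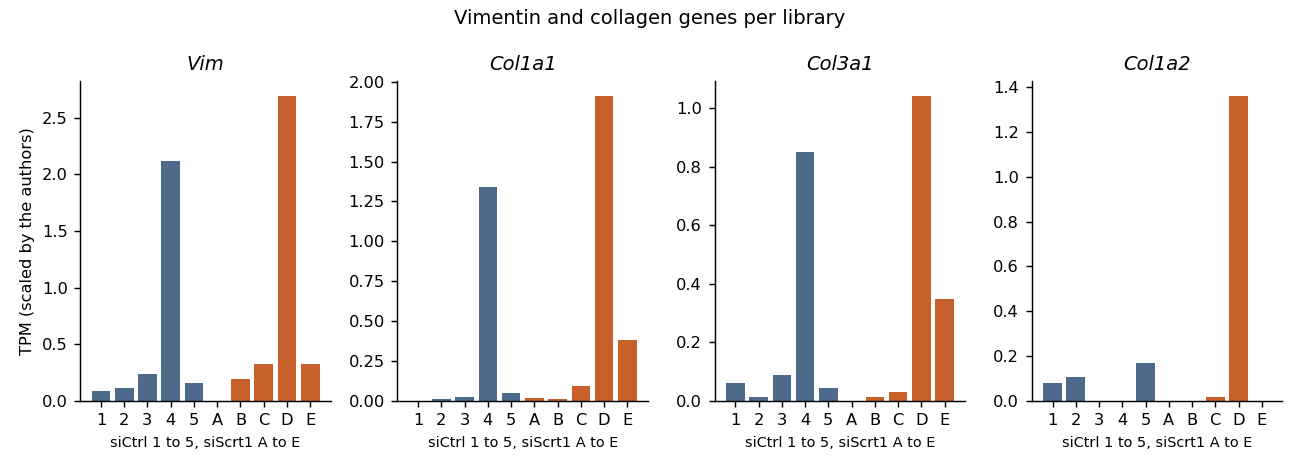
TPM of Vim and 3 collagen genes in each of the 10 libraries, siCtrl in blue and siScrt1 in orange. Vim, Col1a1 and Col3a1 are highest in siCtrl 4 and siScrt1 D, whereas Col1a2 reaches 1.36 TPM in siScrt1 D and 0 in siCtrl 4.

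Some markers of mesenchymal cells were highest in the same libraries as Vim. Of 8 markers, 3 (Col1a1, Col3a1 and Pdgfrb) were highest in siCtrl 4 within siCtrl and in siScrt1 D within siScrt1. Of these, Pdgfrb was near 0 even there, with 0.112 TPM in siCtrl 4 and 0.0539 TPM in siScrt1 D. Col1a1, a fibrillar collagen chain, had 1.34 TPM in siCtrl 4 and 1.91 TPM in siScrt1 D, with at most 0.0469 and 0.378 TPM in the others of each group. Col1a2, Dcn and Lum were highest in siScrt1 D alone, and Pdgfra and Rgs5 in neither. The summed level of the 8 markers was 0.594 to 2.94 TPM in siCtrl and 0.939 to 5.41 TPM in siScrt1 (exact two-sided permutation test, p = 0.532). None of the 8 was at 0 in every library. Whether other cells supplied the Vim reads was not tested. Epcam had 84.8 TPM in siCtrl 4 and 54.0 TPM in siScrt1 D, inside the range of the other libraries of each group.

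Placed in order, the siCtrl levels fell from Epcam (81.9 TPM) through Cdh1 (62.6), Esrp1 (44.9), Tjp1 (37.0), Cdh2 (13.3) and Ocln (7.21) to Cldn4 (3.93), Zeb1 (3.46), Vim (0.544) and Zeb2 (0.106), each a mean over 5 libraries. The ranges of neighbours did not meet except for Cldn4 with Zeb1 and Vim with Zeb2. In siScrt1 the order was the same after Cdh1 and Epcam had exchanged places, and overlaps were found for Cdh1 with Epcam, Ocln with Cldn4, and Vim with Zeb2. The epithelial genes other than Cldn4 thus stood above Zeb1, Vim and Zeb2 in both groups without overlap. Cdh2, the mesenchymal counterpart of Cdh1, went against such an order, as it stood above Ocln and Cldn4 in both groups without overlap.

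The wider set of junction, epithelial and mesenchymal genes was read from the same fit. Of 29 tested cell-cell junction genes 2 passed the threshold (6.9%, against 1.05% of all genes), 1 raised and 1 lowered, and the median log2 fold change was 0.01, with 15 above and 14 below 0. The one raised was Cgn, the gene of cingulin, a cytoplasmic plaque protein that binds ZO-1. It had 2.3, 1.77, 2.28, 2.59 and 2.36 TPM in siCtrl 1 to 5, and 3.63, 3.12, 3.52, 4.38 and 3.53 TPM in siScrt1 A to E. The groups did not overlap, and the log2 fold change was 0.68 (SE 0.116, adjusted p = 0.0129 by limma). Without siCtrl 4 and siScrt1 D it was 0.66 (adjusted p = 0.0578 by limma).

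Pard6b was the junction gene that fell. It encodes a subunit of the polarity complex with Pard3 and atypical protein kinase C. It had 3.57, 3.91, 4.06, 3.64 and 4.11 TPM in siCtrl 1 to 5, and 3.03, 2.88, 2.5, 3.08 and 2.73 TPM in siScrt1 A to E, without overlap. This was a log2 fold change of -0.45 (SE 0.0923, adjusted p = 0.0407 by limma). This call was near the threshold and was lost with the library number as a term (adjusted p = 0.0563 by limma) and in 15 of 22 alternatives in all.

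Of 20 tested epithelial state genes 1 was called, a share of 5.0% beside 1.05% of all genes. This was Ap1m2, which encodes the medium subunit of an adaptor that sorts proteins to the basolateral membrane of epithelial cells. It had 26.6, 28.6, 33.1, 32.0 and 30.3 TPM in siCtrl 1 to 5, and 22.4, 24.7, 23.0, 21.3 and 19.5 TPM in siScrt1 A to E. The groups did not overlap, with a log2 fold change of -0.45 (SE 0.0849, adjusted p = 0.0261 by limma). The call was lost in 8 of 22 alternatives, among them the omission of siCtrl 4 (adjusted p = 0.0683 by limma) and of siScrt1 D (adjusted p = 0.0914 by limma). Of the 20 genes 16 had a fitted change above 0, as had 6601 of all 12941 genes, with a median of 0.09 beside 0.0035 over all tested genes.

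**Figure D4:**
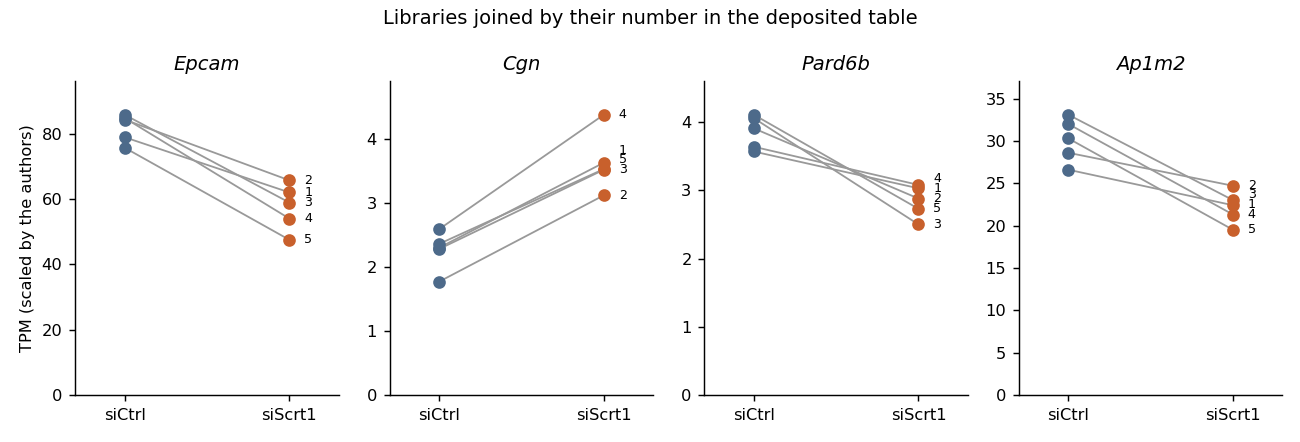
TPM of Epcam, Cgn, Pard6b and Ap1m2, with libraries of the same number in the deposited table joined by a line (5 lines per panel) and the number printed at the right. All 5 lines fall for Epcam, Pard6b and Ap1m2 and all 5 rise for Cgn.

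Mesenchymal state genes were mostly below the limit of the test, with 7 of 32 tested. None of the 7 was called by limma (1.05% of all genes were) or by limma-voom on the recovered reads. At an unadjusted p under 0.05 there was also none, beside 11.1% of all genes. So few genes cannot tell their share from that of all genes. The highest level that any of the other 25 reached in a library was 2.21 TPM. The tested ones were not all low. Fn1 had a mean of 785 CPM in siCtrl and 805 CPM in siScrt1. Its log2 fold change was -0.0076 with a wide 95% interval of -0.82 to 0.81 (SE 0.377), so a sizeable change either way was not excluded. Cdh1 had 300 and 312 CPM, but CPM is not corrected for length, so these levels do not rank the genes. Among the tested ones with a mean of at least 5 CPM the largest rise was that of Loxl2, a collagen crosslinking enzyme, with a log2 fold change of 0.22, and the largest fall that of Tgfb2, a ligand of the TGFβ pathway, with -0.15. Neither passed the threshold. Loxl2 had means of 50.9 TPM in siCtrl and 59.4 TPM in siScrt1. It was higher in siScrt1 in 5 of 5 pairs of libraries with the same number, by 0.0 to 0.62 on the log2 scale. In CPM the pair numbered 1 was reversed, with 96.8 in siCtrl 1 and 95.3 in siScrt1 A. With the library number as a term Loxl2 did not pass the threshold (adjusted p = 0.219 by limma). Tgfb2 was higher in siScrt1 in 2 of 5 such pairs.

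Of 9 tested E-box-binding factors Scrt1, the target of the siRNAs, alone was called, where 1.05% of all genes were. It was also the only one at an unadjusted p under 0.05. Snai1, the founding repressor of E-cadherin, had 5 to 18 reads in siCtrl and 6 to 29 in siScrt1. Its log2 fold change of 0.27 did not pass the threshold and turned to -0.035 without siScrt1 C and to -0.0037 without siCtrl 4. Snai2, its close relative, was the most abundant of Snai1, Snai2 and Snai3, with 2.96 to 4.3 TPM in siCtrl and 3.64 to 6.46 TPM in siScrt1 and a log2 fold change of 0.27, also not called. The reads of Snai2, as those of Epcam, were not whole numbers in any library, so its level is uncertain to that extent. Scrt2, the paralog of Scrt1, had 0.478 to 0.826 TPM in siCtrl and 0.328 to 1.3 TPM in siScrt1 and was not tested. Snai3 had at most 3 reads in a library. Of 11 tested corepressor genes of the Snail and ZEB factors none was called, beside 1.05% of all genes. At an unadjusted p under 0.05 there were 3 (11.1% of all genes were under that value), and limma-voom on the recovered reads called none either. Their largest rise was that of Ctbp2, which ZEB proteins recruit, with a log2 fold change of 0.25. Its TPM was 7.25 to 9.63 in siCtrl and 10.3 to 12.1 in siScrt1, without overlap, while its CPM overlapped. It was higher in siScrt1 in 5 of 5 pairs of libraries with the same number. The share of all tested genes without overlap in TPM, or with 1 direction in 5 of 5 pairs, was not counted. With the library number as a term Ctbp2 did not pass the threshold (adjusted p = 0.137 by limma). The largest fall was that of Rcor1, a corepressor subunit that joins histone deacetylases, with -0.22 for one of the 2 Ensembl genes of this symbol and -0.04 for the other, between which reads could be split. Next came Hdac2, a histone deacetylase, with -0.13. It was lower in siScrt1 in 5 of 5 such pairs, with log2 differences of -0.31 to -0.01. In CPM the pair numbered 3 was reversed, with 69.0 in siCtrl 3 and 70.2 in siScrt1 C. With the library number as a term Hdac2 did not pass the threshold (adjusted p = 0.329 by limma).

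**Figure D5:**
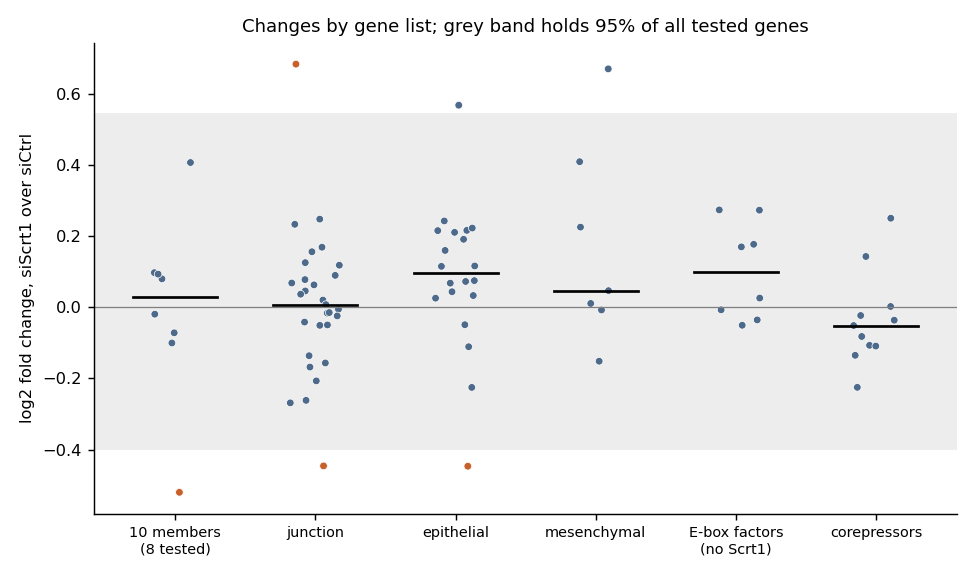
Log2 fold change of each tested gene by list, with the median of the list as a black line; orange marks an adjusted p under 0.05, and the grey band from -0.40 to 0.54 holds 95% of all tested genes. Scrt1, at -2.06, is left out of the E-box factors.

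E-boxes were counted in the promoters of the same lists. They were found in 12 of 23 promoters of junction genes (52.2%) and in 11 of 17 of epithelial state genes (64.7%). The shares were 3 of 18 (16.7%) for mesenchymal state genes, 1 of 10 for E-box-binding factors and 0 of 11 for corepressors, beside 18.8% of all promoters. The core of the SCRT1 motif was found in 3 of the 23 junction promoters and in 2 of the 17 epithelial ones. No mesenchymal, E-box-binding factor or corepressor promoter held it, beside 4.42% of all promoters. Ap1m2, which fell, had 4 E-boxes at 133, 103, 73 and 61 bases before its start but no core. At least 4 E-boxes were found in 0.0762% of the promoters of tested genes. The other promoters of the epithelial state list with an E-box belonged to genes that were not called or not tested. Epcam, which is not on this list and also fell, had 1 E-box and no core. Whether the E-boxes bear on the fall of Ap1m2 or of Epcam was not tested. Cgn, which rose, had no E-box in the window. Pard6b had no entry.

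The genes nearest in pattern to Cdh1 over the 10 libraries, by the root mean square difference of centred log2 values among 10124 genes, were Tcf20 (0.0447), Stard3 (0.0466) and Ank3 (0.0506). Cdh1 itself varied by 0.119 on this measure. For Vim the nearest were Cpne1 (1.36), Slco2b1 (1.42) and Afap1 (1.5), hardly closer than the 1.96 by which Vim varied itself.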

How the data were processed

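The RNA of 10 libraries (5 siCtrl and 5 siScrt1, grouped by the genotype label) was sequenced single-end, and the authors used kallisto to assign reads to transcripts of the rat build Rnor6 and scaled the values between libraries with Sleuth (tools as in the submitters' notes, versions not given in the sources used here). The deposited estimated counts and TPM values are thus a scaled signal, not raw counts. Of the table, 31715 transcripts were used and 9363 rows without a value were left out. Low estimated counts lay on multiples of a step of 0.842 to 1.26 in each library. Division by the step gave recovered reads, whole within 0.01 for 49.9 to 50.8% of transcripts and 75.9 to 76.6% of gene sums, since kallisto shares reads between transcripts, so limma-voom on them served only as an alternative.

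Scaled counts were summed per Ensembl gene and log2(value + 0.5) was fitted with limma 3.58.1 (trend) in R 4.3.3, without covariates other than group. Changes of low genes are understated on this scale. The filter asked for the CPM that 10 reads give at median library size, in 5 or more libraries, and for at least 15 reads in all. Transcripts were kept with at least 5 reads in at least 47% of libraries. Benjamini-Hochberg adjusted p-values run over all genes or transcripts tested, with a threshold of 0.05. Single values were compared with an exact permutation test in SciPy 1.17.1, which with 5 against 5 cannot give less than 0.00794. Its adjustment ran over 5 values of the 10 genes, and p-values of summed markers were not adjusted. The main fit and this test took the libraries as unpaired. Differences between pairs of libraries with the same number are therefore part of the spread that their p-values measure. The limit set by a count of 0 is 3 reads, and it and the depth cover counting error only. Sharing of reads between isoforms was not modelled. The gene fit was tested on simulated data.

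The members and gene lists were chosen with earlier results of these data known. Further genes were named by a rule: every called gene of a list, otherwise its largest rise and fall at a mean of at least 5 CPM, Snai1, Snai2, Snai3, Scrt2, and the 3 genes nearest in pattern to Cdh1 and to Vim. Fn1 was named outside this rule, for its level. The table numbers the libraries 1 to 5 in each group, with siScrt1 A to E as 1 to 5. The deviations of same-numbered libraries from their group means correlated at 0.131 to 0.351 in all 5 pairs, so the numbers were taken to pair the libraries, and a fit with the number as a replicate block was an alternative. How many of all tested genes have 1 direction in all 5 pairs, or do not overlap in TPM, was not counted. Such agreement is therefore given as a description. Other alternatives were scalings, filters, pseudocounts, TPM and the omission of libraries. Promoter sequences are from RefSeq (GRCr8), which differs from the build of the reads, and no reads were placed on them. Plots were drawn with matplotlib 3.10.9.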

Additional observations from a re-analysis of the deposited data

Results flagged for a closer look

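In 5 of 52 groups of 5 library values 1 library lay far from the others by Dixon's criterion, where chance gives about 3. Vim reached 2.12 TPM in siCtrl 4 against 0.0828 to 0.24 TPM in the other siCtrl libraries. Vim reached 2.69 TPM in siScrt1 D against 0 to 0.322 TPM in the other siScrt1 libraries. The 8 mesenchymal cell markers summed to 2.94 TPM in siCtrl 4 against 0.594 to 1.26 TPM, and to 5.41 TPM in siScrt1 D against 0.939 to 1.45 TPM. These are the same 2 libraries, and they share the number 4 in the deposited table. Cldn4 reached 7.32 TPM in siScrt1 B against 4.47 to 5.17 TPM in the other siScrt1 libraries. The source of these values was not tested.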

How the results depend on the processing

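In 22 alternatives the direction of every tested gene among the 10 was kept except that of Esrp1, whose log2 fold change of -0.02 became 0.0094 under cyclic loess and 0.00045 without siScrt1 A (range without 1 library -0.054 to 0.00045). Epcam was called in 21 of 22, from -0.57 to -0.45, and lost its call without both libraries numbered 4, siCtrl 4 and siScrt1 D, an omission chosen after seeing the data. That omission left 0 of the 10 genes called, 25 genes over the whole table, 13 transcripts, and Scrt1 at -1.82 (limma adjusted p = 0.0596). With the same omission and the replicate block, Epcam was called, 97 genes passed and Scrt1 was called (limma adjusted p = 0.00706). The replicate block on all libraries gave 259 genes and 29 transcripts. Pard6b lost its call with the block (limma adjusted p = 0.0563), and no other named gene that was compared changed its call. Rcor1, Fn1 and the genes nearest in pattern to Cdh1 and Vim were not compared between settings.

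Leaving out 1 library gave 62 to 133 genes in place of 136. It moved the count by over 1.5 times for siCtrl 4 (82), siCtrl 5 (77), siScrt1 B (83), C (87), D (62) and E (64). It gave 16 to 67 transcripts in place of 73, Scrt1 from -2.26 to -1.80, and 1 of the 10 genes called each time. Snai1 turned from 0.27 to -0.0037 without siCtrl 4 and to -0.035 without siScrt1 C, with 0.49 as the highest value without 1 library. The cause of these shifts was not tested. The median over all genes stayed between -0.001 and 0.0201 under the scalings, filters and units tried. Zeb2 and most Vim values rest on under 10 reads a library, so that changes in them were beyond the depth.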
